A study of Mus musculus with 21 samples.

Results

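The genes described here are Fgf4 and 9 genes that limit the ERK pathway below it or are transcribed in response to it: Dusp4, Dusp6, Spry2, Spry4, Spred1, Etv4, Etv5, Phlda1 and Fosl1. They were chosen by symbol, as the 10 rows with these names among the 78317 gene rows of the deposited tables, and each symbol had 1 row. RNA was sequenced from E14, a line of mouse embryonic stem (ES) cells, in 21 libraries that fall into 7 groups of 3. The ES group was kept in standard culture and not treated. The other 6 groups were grown for 3, 5 or 7 days with vehicle control or with vitamin B6, given as pyridoxine at 20 µM (VB6 below). The title of the series names endoderm differentiation, but the labels do not say how differentiation was started, what the vehicle was or whether the vehicle medium already held pyridoxine. All groups come from 1 cell line, and nothing in the labels ties the 3 libraries of a group to separate cultures, so p-values measure the spread between these libraries, which may be technical.

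FGF4 is the fibroblast growth factor that ES cells secrete and that acts back on them through FGF receptors, the adaptor FRS2, Ras, Raf and the kinases MEK and ERK. Mouse ES cells need this signal to leave the naive state, and in the early embryo the same signal from the epiblast drives its neighbours to primitive endoderm. Active ERK switches on genes that shut it down again, among them the phosphatases of the DUSP family and the Sprouty and Spred proteins, and the ETS factors Etv4 and Etv5 are widely used as readouts of FGF signalling. Messenger RNA of such genes is a readout of a pathway with feedback, and phosphorylated ERK itself was not measured in these data.

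Levels are given as CPM, counts scaled to a common library size by edgeR, and as TPM where genes are compared with each other, since TPM takes gene length into account. A gene is called higher or lower where the adjusted p of edgeR's quasi-likelihood test, adjusted over all 18901 genes tested, was under 0.05. Fosl1 did not pass the filter on low counts, so 9 of the 10 genes were tested. Total counts per library ran from 15882380 to 21629730, and a count of 0 allows up to 3 counts, or 0.139 to 0.189 CPM, a limit for counting error alone. In 2 groups the libraries differed from the rest. The fragment length implied by the deposited values was 227 ± 8.66 nt (SD, n = 3) for vehicle day 5 and 266 ± 7.81 nt for VB6 day 7. It was 307 to 312 nt in the means of the other groups. Ribosomal protein genes took 3.54% and 3.43% of reads in the first pair, against 5.79 to 6.99% elsewhere. Because 1 of these groups is a vehicle group and the other a VB6 group, fragment length and VB6 cannot be told apart at days 5 and 7 by counts alone. A further fit of each comparison held an offset for every library's trend over GC content and transcript length. Its values are given as "corrected".

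The label of the cells was checked on marker lists. The summed level of 10 naive pluripotency genes was 1764 to 2025 CPM in the ES libraries and 260 to 297 CPM in vehicle day 3, and all 10 fell between these groups. The 7 genes of the formative or primed epiblast all rose over that step, from a sum of 155 to 188 CPM to 2493 to 2815 CPM, with Fgf5 at 0 counts in ES cells. The 8 visceral endoderm genes summed to 48.7 to 54.6 CPM in ES cells, where Afp had no count, and to 4908 to 5282 CPM in vehicle day 7. The 4 genes of fibroblast-like cells rose late, from 20.2 to 22.9 CPM at vehicle day 3 to 590 to 786 CPM at vehicle day 7, with 3 called higher and 1 lower. Over that span the neural genes went from 22.5 to 28.2 CPM up to 107.7 to 120.6 CPM, with 3 of 3 tested called higher. Definitive endoderm genes went from 14.78 to 18.05 CPM up to 76.4 to 91.7 CPM, with 5 of 6 called higher. Of all genes 34.3% were called higher between these days. In bulk RNA fewer cells of a type and less RNA per cell cannot be told apart, so each level below is an average over the changing mix of cells.

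Over the whole course the 9 tested genes split into different patterns. Fgf4 and Etv4 were highest in ES cells and lowest at day 7. Dusp4 and Dusp6 were lowest in ES cells. Spry4 and Etv5 were highest at day 3, Spred1 and Phlda1 were highest at days 5 or 7, and Spry2 moved least.

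**Figure D1:**
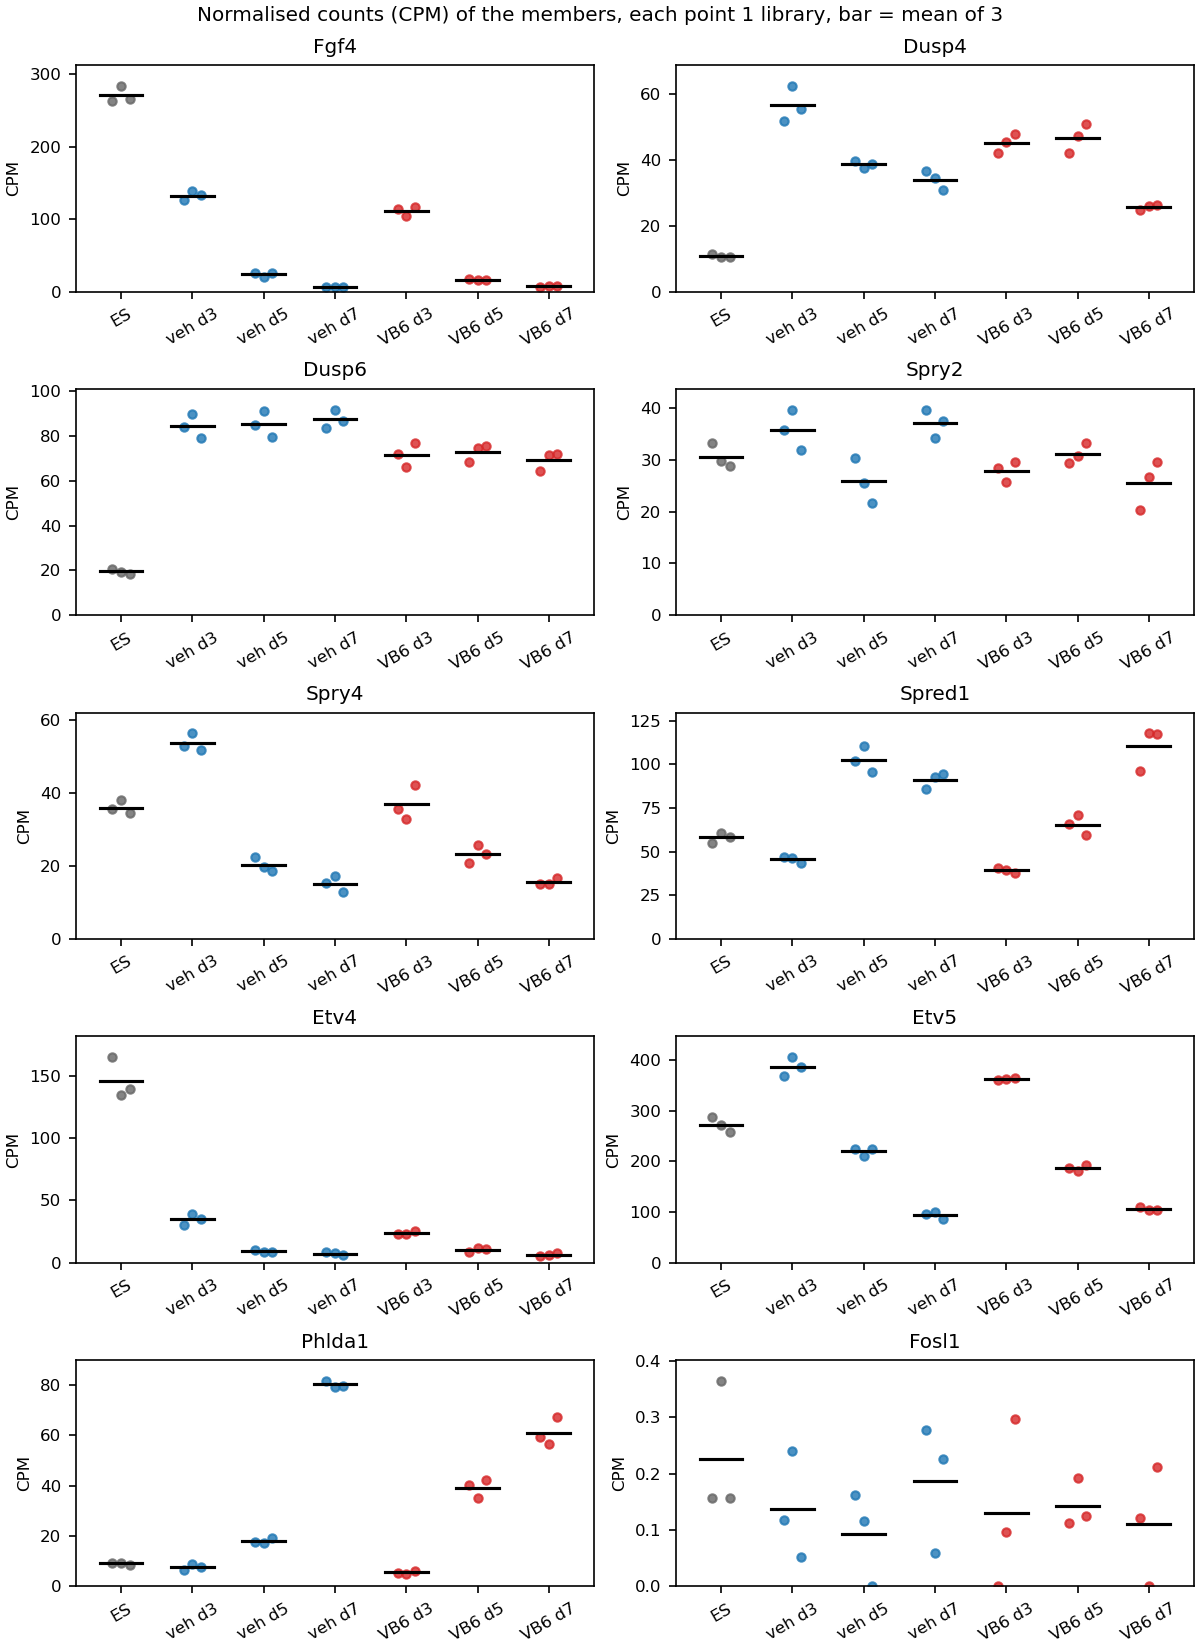
Normalised counts (CPM, vertical axis from 0, a scale per panel) of the 10 genes in the 7 groups; each point is 1 library and the bar is the mean of 3. Fgf4 and Etv4 fall from their highest level in ES cells, Dusp4 and Dusp6 are lowest there, and Fosl1 stays under 0.4 CPM.

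No RefSeq promoter entry for Dusp4, Spry4, Etv4, Phlda1 or Fosl1 was used, so the promoters of these genes were not searched. Promoter sequences of Fgf4, Dusp6, Spry2, Spred1 and Etv5 were taken from RefSeq (GRCm38.p6). Those of Fgf4, Dusp6 and Etv5 are shown because these genes took 3 different courses: Fgf4 fell throughout, Dusp6 rose by day 3 with no called change in CPM after it, and Etv5 rose at day 3 and then fell. Each run is the 250 bases before the start, 5′ to 3′ on the strand of the gene. Capitals mark GGAA or its reverse TTCC, the core letters that ETS factors read, and CCAAT or its reverse ATTGG, the letters that the factor NF-Y reads. The Fgf4 window is chr7:144861136-144861385, plus strand, and the Dusp6 window is chr10:99262981-99263230, plus strand. Etv5 has 2 starts in the table, with windows chr16:22439571-22439820 and chr16:22438369-22438618, both on the minus strand. The Fgf4 window lies inside the annotated span of the gene given below, and the Etv5 windows reach into theirs. For these genes the RefSeq starts used here differ from the start of that span.
Fgf4: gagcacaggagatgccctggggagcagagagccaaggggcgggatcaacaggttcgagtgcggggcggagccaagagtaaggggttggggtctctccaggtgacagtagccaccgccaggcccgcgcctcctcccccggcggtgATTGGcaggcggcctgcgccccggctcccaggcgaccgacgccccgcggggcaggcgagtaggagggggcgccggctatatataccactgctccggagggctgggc
Dusp6: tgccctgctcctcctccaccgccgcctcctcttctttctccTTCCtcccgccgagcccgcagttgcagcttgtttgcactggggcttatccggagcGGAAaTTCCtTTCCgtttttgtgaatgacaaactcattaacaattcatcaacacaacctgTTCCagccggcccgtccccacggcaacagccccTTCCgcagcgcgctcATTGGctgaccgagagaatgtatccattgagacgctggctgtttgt
Etv5 first start: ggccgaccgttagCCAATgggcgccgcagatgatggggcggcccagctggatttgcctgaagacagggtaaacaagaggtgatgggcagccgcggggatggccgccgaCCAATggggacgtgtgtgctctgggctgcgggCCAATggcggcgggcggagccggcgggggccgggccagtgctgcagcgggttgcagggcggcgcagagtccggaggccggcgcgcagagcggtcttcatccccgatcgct
Etv5 second start: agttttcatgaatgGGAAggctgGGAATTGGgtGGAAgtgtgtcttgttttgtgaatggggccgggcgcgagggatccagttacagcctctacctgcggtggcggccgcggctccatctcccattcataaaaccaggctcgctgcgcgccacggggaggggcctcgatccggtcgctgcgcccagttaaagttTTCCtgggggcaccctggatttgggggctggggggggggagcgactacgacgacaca

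The Dusp6 window held GGAA on either strand 6 times, and 8.7% of all 32851 RefSeq promoter windows of this length held it as often. The Fgf4 window held no GGAA and 1 CCAAT. At the first start of Etv5 there was no GGAA and CCAAT was found 3 times, as often as in 2.8% of windows, while the second start had GGAA 4 times and CCAAT once, with 1 GGAA and 1 ATTGG sharing letters. The Spred1 and Spry2 windows, not shown, held GGAA 4 and 3 times and no CCAAT. Of all windows 93.5% held GGAA and 33.9% held CCAAT. The longer ETS motif CCGGAA, which contains GGAA, the AP-1 motif TGANTCA and the CRE motif TGACGTCA, searched on both strands, were in none of the 6 windows of these 5 genes, against 12.03%, 6.75% and 1.55% of all windows. The motifs were chosen with the sequences in view, a match is a description of letters, and these windows do not cover distal elements.

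Fgf4 (ENSMUSG00000050917, mm10 chr7:144847367-144865243, plus strand), the ligand, had the steepest decline of the 9 genes. Its ES libraries measured 263, 284 and 266 CPM. In vehicle the libraries measured 126, 138 and 133 CPM at day 3, 25, 20.0 and 25.5 CPM at day 5, and 6.15, 5.90 and 6.37 CPM at day 7. With VB6 they measured 114, 104 and 117 CPM at day 3, 18.0, 15.5 and 15.8 CPM at day 5, and 5.97, 7.76 and 7.01 CPM at day 7. Every step down separated the libraries of consecutive days within an arm, and the arms themselves overlapped only at day 7. In edgeR's test the fall from ES cells to vehicle day 3 was -1.03 ± 0.07 on the log2 scale (SE, n = 3 libraries per group, adjusted p = 1.64e-11). From vehicle day 3 to day 7 it fell by a further 4.43 ± 0.10 (adjusted p = 1.24e-20), which is 21.5-fold, by 2.49 ± 0.08 up to day 5 and by 1.94 ± 0.11 after it. The VB6 arm fell by 2.77 ± 0.09 from day 3 to day 5 and by 1.24 ± 0.11 from day 5 to day 7. Fgf4 thus went from the highest mean TPM of the 10 genes in ES cells, 125 ± 9.48 (SD, n = 3), to 2.94 ± 0.142 TPM in vehicle day 7, where only Fosl1 had a lower mean.

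The pluripotency factors Pou5f1, Sox2 and Nanog, which act on an enhancer of Fgf4, all fell from ES cells to vehicle day 3, by 0.39, 0.99 and 1.23 on the log2 scale. Between vehicle day 3 and day 7 Sox2 fell by 1.06, Nanog fell by 1.39 and Pou5f1 fell by 3.54, beside the 4.43 of Fgf4. The steps within this span did not all go down: from vehicle day 3 to day 5 Nanog was higher (131 to 150 CPM, 0.19, not called with the correction), and from day 5 to day 7 Sox2 rose from 61.5 to 104 CPM (0.76). At day 5 Sox2 was higher with VB6 (1.12, corrected 0.89) and Nanog lower (-0.56, corrected -0.43), while Pou5f1 was called higher uncorrected (0.38) and lower corrected (-0.38). Among 14655 protein-coding genes compared over the 7 group means, each centred on its own mean, those closest to Fgf4 were Piwil4, Nr0b1, Morc1, Tuba3a and Nlrp4f, with root mean square differences of 0.21, 0.25, 0.26, 0.29 and 0.30 log2 units. Nr0b1 encodes Dax1, a nuclear receptor of the pluripotency network, and stood at 30.6 CPM in ES cells, 17.5 CPM in vehicle day 3 and 0.810 CPM in vehicle day 7. This likeness is a description over 7 means of uncorrected values that come from the same libraries. Piwil4, at 9.94 CPM in ES cells, was at 0.0574 CPM in vehicle day 7, a level limited by depth.

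Dusp4 and Dusp6 encode dual-specificity phosphatases that remove phosphate from ERK, Dusp4 in the nucleus and Dusp6 in the cytoplasm. Dusp6 (ENSMUSG00000019960, chr10:99263231-99267489, plus strand) measured 20.7, 19.4 and 18.6 CPM in the ES libraries. Its vehicle libraries measured 84.2, 89.9 and 79.3 CPM at day 3, 85.0, 91.4 and 79.5 CPM at day 5, and 83.7, 91.9 and 86.8 CPM at day 7. Its VB6 libraries measured 72.2, 66.1 and 77.2 CPM at day 3, 68.3, 74.5 and 75.6 CPM at day 5, and 64.5, 71.6 and 72.2 CPM at day 7. On this scale the VB6 libraries of each day lay below the vehicle libraries of that day, and the 3 days of an arm overlapped. In TPM the arms overlapped at day 7, with 41.5 to 47.6 TPM with VB6 and 46.2 to 49.0 TPM with vehicle. The rise from ES cells to vehicle day 3 was 2.11 ± 0.08 on the log2 scale (edgeR, adjusted p = 1.46e-16). Between days it differed by 0.01 ± 0.07 from vehicle day 3 to day 5 and by 0.04 ± 0.07 from day 5 to day 7, and neither passed the test (adjusted p = 0.877 and 0.659). The difference from vehicle day 3 to day 7 was 0.05 (adjusted p = 0.54), and those from VB6 day 3 to day 5 and from day 5 to day 7 were 0.02 and -0.07 (adjusted p = 0.827 and 0.439). On the TPM scale the step from vehicle day 3 to day 5 was 0.36 (limma on log2(TPM + 1), adjusted p = 0.00059), where the median of all genes was 0.24. On that scale Dusp6 was also higher at VB6 day 7 than at day 5 (0.22, adjusted p = 0.0254), where the median of all genes was 0.21.

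Dusp4 (ENSMUSG00000031530, chr8:34807297-34819894, plus strand) measured 11.3, 10.3 and 10.6 CPM in the ES libraries. In vehicle its libraries stood at 51.7, 62.4 and 55.5 CPM at day 3, 39.6, 37.4 and 38.6 CPM at day 5, and 36.6, 34.5 and 30.8 CPM at day 7. With VB6 they stood at 41.9, 45.4 and 47.8 CPM at day 3, 42.0, 47.1 and 50.8 CPM at day 5, and 24.8, 25.9 and 26.4 CPM at day 7. Unlike Dusp6, Dusp4 came down again after day 3 in vehicle, and with VB6 it came down after day 5. The rise to vehicle day 3 was 2.39 ± 0.09 (adjusted p = 2.0e-16), and the fall from vehicle day 3 to day 7 was -0.74 ± 0.08 (adjusted p = 2.71e-08, corrected -0.96). Where in vehicle the fall took place depended on the correction: from day 3 to day 5 it was -0.55 uncorrected and -0.23 corrected, and from day 5 to day 7 it was -0.18 (not called, adjusted p = 0.0537) and -0.73 (called). With VB6 the difference from day 3 to day 5 was 0.05 uncorrected (not called, adjusted p = 0.634) and -0.24 corrected (called), and the fall from day 5 to day 7 was -0.86 ± 0.08 (corrected -0.66). Over the 7 groups Dusp4 and Dusp6 were the second closest of the 36 pairs of tested genes, at 0.33 log2 units.

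Sprouty and Spred proteins block the pathway at the level of Ras and Raf. Spry4 (ENSMUSG00000024427, chr18:38586247-38601415, minus strand, overlapping the annotated genes Gm27369 and Gm27804) measured 35.5, 38.1 and 34.5 CPM in the ES libraries. In vehicle it measured 52.9, 56.4 and 51.9 CPM at day 3, 22.6, 19.6 and 18.5 CPM at day 5, and 15.3, 17.3 and 12.9 CPM at day 7. With VB6 it measured 35.7, 32.8 and 42.2 CPM at day 3, 20.8, 25.7 and 23.3 CPM at day 5, and 14.9, 15.1 and 16.7 CPM at day 7. The peak at vehicle day 3 stood clear of the other 6 groups, and the VB6 libraries of that day overlapped those of ES cells. The rise to vehicle day 3 was 0.58 ± 0.10 (adjusted p = 2.14e-05) and the fall from there to vehicle day 7 was -1.83 ± 0.11 (adjusted p = 3.71e-13). Most of it came before day 5 (-1.41 ± 0.10), with -0.42 ± 0.11 from day 5 to day 7. With VB6 the steps were -0.66 ± 0.10 and -0.58 ± 0.11. The second was not called with limma on log2(TPM + 1) (-0.22, adjusted p = 0.134), where the median of all genes was 0.21.

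Spry2 (ENSMUSG00000022114, chr14:105891947-105896819, minus strand) stayed between 20.2 and 39.7 CPM in all 21 libraries, the narrowest range of group means among the 9 tested genes. Its ES libraries measured 33.2, 29.9 and 28.9 CPM. The vehicle libraries measured 35.7, 39.7 and 31.9 CPM at day 3, 30.5, 25.6 and 21.7 CPM at day 5, and 39.6, 34.3 and 37.5 CPM at day 7. The VB6 libraries measured 28.4, 25.8 and 29.6 CPM at day 3, 29.4, 30.7 and 33.2 CPM at day 5, and 20.2, 26.6 and 29.6 CPM at day 7. Ordered by mean, each group overlapped the next. From vehicle day 3 it was lower at day 5, by -0.46 ± 0.12, and higher again at day 7, by 0.52 ± 0.12 over day 5, and both changes were called with and without the correction. On the log2(TPM + 1) scale neither was called, at -0.11 (adjusted p = 0.517) and 0.31 (adjusted p = 0.0707). Vehicle day 7 differed from day 3 by 0.05 (adjusted p = 0.698), and VB6 day 5 from day 3 by 0.15 (adjusted p = 0.292). The difference between vehicle day 3 and ES cells did not pass the test (0.22 ± 0.12, adjusted p = 0.104). It passed without the third library of vehicle day 3 (0.30, adjusted p = 0.0496) and without the libraries of the groups with short fragments (0.22, adjusted p = 0.0381).

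Spred1 (ENSMUSG00000027351, chr2:117121374-117182279, plus strand), which recruits the Ras inhibitor neurofibromin to the membrane, went the other way from Spry4. It measured 55.1, 60.8 and 58.6 CPM in ES cells. The vehicle libraries measured 46.9, 46.4 and 43.6 CPM at day 3, 102, 111 and 95.5 CPM at day 5, and 86.0, 93.0 and 94.8 CPM at day 7. The VB6 libraries measured 40.7, 39.4 and 37.8 CPM at day 3, 65.9, 70.8 and 59.5 CPM at day 5, and 96.3, 118 and 118 CPM at day 7. Its lowest groups were those of day 3 and its highest were vehicle day 5 and VB6 day 7, the groups with short fragments. From ES cells to vehicle day 3 it fell by 0.35 ± 0.08 (adjusted p = 0.000582, corrected -0.60), and from there to vehicle day 7 it rose by 0.999 ± 0.08 (adjusted p = 9.74e-11, corrected 0.91). The step from vehicle day 3 to day 5 was 1.17 uncorrected and 0.57 corrected, and the step from day 5 to day 7 was -0.17 uncorrected (not called) and 0.35 corrected (called, adjusted p = 1.41e-05). That last step was called lower by DESeq2 (-0.20, adjusted p = 0.0199), on log2(TPM + 1) (-0.41, adjusted p = 0.000377) and with only the 2 groups fitted (-0.20, adjusted p = 0.0159), so its direction depended on the processing. With VB6 Spred1 rose by 0.74 ± 0.08 from day 3 to day 5 and by 0.76 ± 0.08 from day 5 to day 7 (corrected 0.74 and 0.40).

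Etv4 and Etv5 encode ETS factors of the PEA3 group, transcribed in response to FGF in many tissues. Etv5 (ENSMUSG00000013089, chr16:22381309-22439719, minus strand) measured 288, 272 and 257 CPM in ES cells. The vehicle libraries measured 368, 406 and 385 CPM at day 3, 225, 210 and 223 CPM at day 5, and 96.1, 99.9 and 86.2 CPM at day 7. The VB6 libraries measured 359, 362 and 364 CPM at day 3, 187, 180 and 193 CPM at day 5, and 111, 104 and 105 CPM at day 7. No 2 groups next to each other in the order of the means overlapped. Etv5 rose by 0.51 ± 0.06 from ES cells to vehicle day 3 (adjusted p = 3.25e-08) and fell by 2.04 ± 0.06 from there to vehicle day 7 (adjusted p = 9.11e-19). The fall was -0.82 ± 0.06 from vehicle day 3 to day 5 and -1.22 ± 0.06 from day 5 to day 7. With VB6 these steps were -0.96 ± 0.06 and -0.81 ± 0.06. Its course was the nearest to that of Spry4, at 0.27 log2 units, the smallest difference of the 36 pairs.

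Etv4 (ENSMUSG00000017724, chr11:101769742-101785371, minus strand) did not share the peak at day 3. Its ES libraries measured 166, 135 and 139 CPM. The vehicle libraries measured 30.1, 39.2 and 35.4 CPM at day 3, 9.88, 8.24 and 8.79 CPM at day 5, and 8.31, 7.53 and 5.87 CPM at day 7. The VB6 libraries measured 22.8, 23.3 and 25.6 CPM at day 3, 8.84, 11.6 and 10.7 CPM at day 5, and 5.06, 6.24 and 7.92 CPM at day 7. ES cells and the day 3 groups were each separate from the rest, while the groups of days 5 and 7 overlapped their neighbours in the order. From ES cells to vehicle day 3 Etv4 fell by 2.07 ± 0.12 (adjusted p = 2.59e-13), where Etv5 rose. From vehicle day 3 to day 7 it fell by a further 2.27 ± 0.14 (adjusted p = 9.5e-13). In vehicle the step from day 3 to day 5 was -1.96 ± 0.14 (corrected -1.46), and that from day 5 to day 7 was -0.31 ± 0.16 uncorrected (not called, adjusted p = 0.0885) and -1.05 corrected (called). With VB6 the steps were -1.20 ± 0.14 and -0.69 ± 0.16 (corrected -1.55 and -0.38). The second was not called with limma on log2(TPM + 1) (-0.13, adjusted p = 0.661), where the median of all genes was 0.21. In mean TPM, Etv4 and Etv5 stood at 114 ± 16.9 and 93.4 ± 10.1 in ES cells with overlapping libraries, and at 27.9 ± 7.27 and 124 ± 7.60 in vehicle day 3.

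The TPM of Etv4 is less certain than its count. The annotation holds 12 transcripts of Etv4, and the effective length implied by counts and FPKM ran from 1091 to 1883 nt over the libraries, a ratio of 1.73, with a ratio of 1.46 among the 3 libraries of vehicle day 5. For the other 8 tested genes the ratio was at most 1.18. The corrected fit took length and GC content from the longest transcript, 2395 nt for Etv4, so the corrected values of Etv4 rest on that choice.

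**Figure D2:**
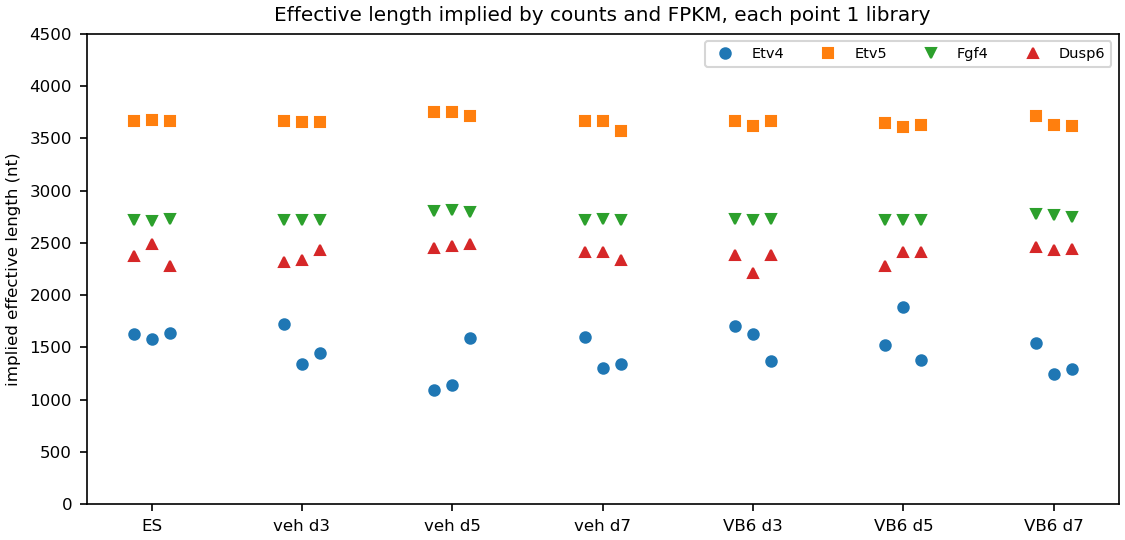
Effective length in nucleotides (vertical axis) implied by counts and FPKM in each library (points) of the 7 groups, for Etv4, Etv5, Fgf4 and Dusp6. The points of Etv4 scatter from 1091 to 1883 nt within and between groups, while those of Etv5 and Fgf4 form nearly flat rows.

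Phlda1 (ENSMUSG00000020205, chr10:111506286-111508645, plus strand, overlapping the annotated gene Gm28592) encodes a pleckstrin homology domain protein induced by growth factors. It measured 9.42, 9.40 and 8.60 CPM in ES cells. The vehicle libraries measured 6.42, 8.73 and 7.63 CPM at day 3, 17.4, 17.3 and 19.2 CPM at day 5, and 81.8, 79.4 and 79.6 CPM at day 7. The VB6 libraries measured 5.47, 4.96 and 6.13 CPM at day 3, 40.2, 35.1 and 42.1 CPM at day 5, and 59.2, 56.5 and 67.2 CPM at day 7. Its highest groups were the day 7 groups, which were the lowest groups of Fgf4. Fgf4 and Phlda1 were the farthest apart of all pairs, at 3.38 log2 units. Phlda1 rose by 3.40 ± 0.10 from vehicle day 3 to day 7 (adjusted p = 1.43e-18, corrected 3.20), a 10.6-fold rise. In vehicle the steps were 1.24 ± 0.11 up to day 5 and 2.16 ± 0.09 after it (corrected 1.83 and 1.38), and with VB6 they were 2.82 ± 0.11 and 0.64 ± 0.09 (corrected 2.52 and 1.03). The small fall from ES cells to vehicle day 3 (-0.27 ± 0.11, adjusted p = 0.0445) lost its call with the correction (-0.07) and without any one of 4 libraries, the first or the second of ES cells or the first or the third of vehicle day 3 (-0.16 to -0.27, adjusted p = 0.0809 to 0.244). The genes closest to Phlda1 over the 7 groups were Ahnak2, Kcnf1, Atf3, Gpx3 and Exoc3l4, at 0.19 to 0.25 log2 units. Of these Kcnf1 was at 0.132 CPM in vehicle day 3, a level limited by depth. Atf3, a stress-induced transcription factor, went from 3.76 CPM at vehicle day 3 up to 44.0 CPM at day 7, over the same step in which the summed level of the fibroblast-like genes rose, and the part of that in the rise of Phlda1 was not tested.

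Fosl1 (ENSMUSG00000024912, chr19:5447547-5455946, plus strand, overlapping Ccdc85b) encodes the AP-1 factor FRA1, whose amount follows sustained ERK activity in many cells. Its expected counts ran from 0 to 7.33 per library, and 1 library each of vehicle day 5, VB6 day 3 and VB6 day 7 had none. Group means lay between 0.0924 CPM (vehicle day 5) and 0.227 CPM (ES cells), all groups overlapped, and no change was detectable at this depth. In 1 library of vehicle day 7 it was listed at 2.19 TPM on 4.10 counts, where the other libraries of that group were at 0.05 and 0.22 TPM.

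For the other 7 genes the closest gene outside the 10, by the same measure as for Fgf4, was Tmem42 for Dusp4 (0.13 log2 units), Per2 for Dusp6 (0.12), Tomm40l for Spry2 (0.12), Epor for Spry4 (0.12), Ptar1 for Spred1 (0.09), Kcnh3 for Etv4 (0.19) and Ankrd34b for Etv5 (0.08). Per2 is a gene of the circadian clock and Epor the receptor of erythropoietin. Tmem42 was at 0.174 CPM in ES cells, a level limited by depth. The range of the group means themselves, on the log2 scale, was 5.44 for Fgf4, 4.51 for Etv4, 3.84 for Phlda1, 2.38 for Dusp4, 2.16 for Dusp6, 2.04 for Etv5, 1.83 for Spry4, 1.49 for Spred1 and 0.55 for Spry2, so that a small distance says less for Spry2 than for Fgf4.

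The changes over time were also counted over the 9 tested genes. From ES cells to vehicle day 3, 4 of the 9 rose and 4 fell, where 33.1% of all genes rose, 31.8% fell and 64.9% were called in either direction. From vehicle day 3 to day 5, 2 rose and 6 fell (31.9% and 33.4% of all genes, 65.3% together). From vehicle day 5 to day 7, 2 rose and 3 fell (35.2% and 31.1%, 66.3% together). From vehicle day 3 to day 7, 2 rose and 5 fell (34.3% and 33.1%, 67.4% together). With VB6, 2 rose and 4 fell from day 3 to day 5 (29.9% and 26.4%, 56.2% together), and 2 rose and 5 fell from day 5 to day 7 (27.3% each, 54.5% together). Phlda1 was among the genes that rose in all but the first of these comparisons, and Fgf4 fell in all of them.

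The libraries of both groups did not overlap for 7, 8, 7 and 7 of the 9 genes in the 4 vehicle comparisons, in the order above, where this held for 66.1%, 70.8%, 70.2% and 70.5% of all genes, and for 6 and 7 in the VB6 comparisons (63.3% and 59.4%). With the correction, 4 rose and 3 fell from ES cells to vehicle day 3, where 68.9% of all genes were called. The corrected counts were 2 and 6 from vehicle day 3 to day 5 (64.5%), 3 and 5 from day 5 to day 7 (61.2%) and 2 and 5 from day 3 to day 7 (71.8%). With VB6 they were 2 and 5 from day 3 to day 5 (59.5%) and 2 and 6 from day 5 to day 7 (55.0%). In the step from vehicle day 5 to day 7, the calls of Dusp4 and Etv4 were made without the first library of vehicle day 7 (-0.24 and -0.42) and that of Spred1 without the third library of vehicle day 5 (-0.22). In the step from VB6 day 5 to day 7, Spry2 was called without the third library of VB6 day 7 (-0.40, adjusted p = 0.0122), while with all libraries it was not called uncorrected (-0.28, adjusted p = 0.0544) and was called corrected (-0.32, adjusted p = 0.0297). The genes differed from each other in the direction and the day of their changes.

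**Figure D3:**
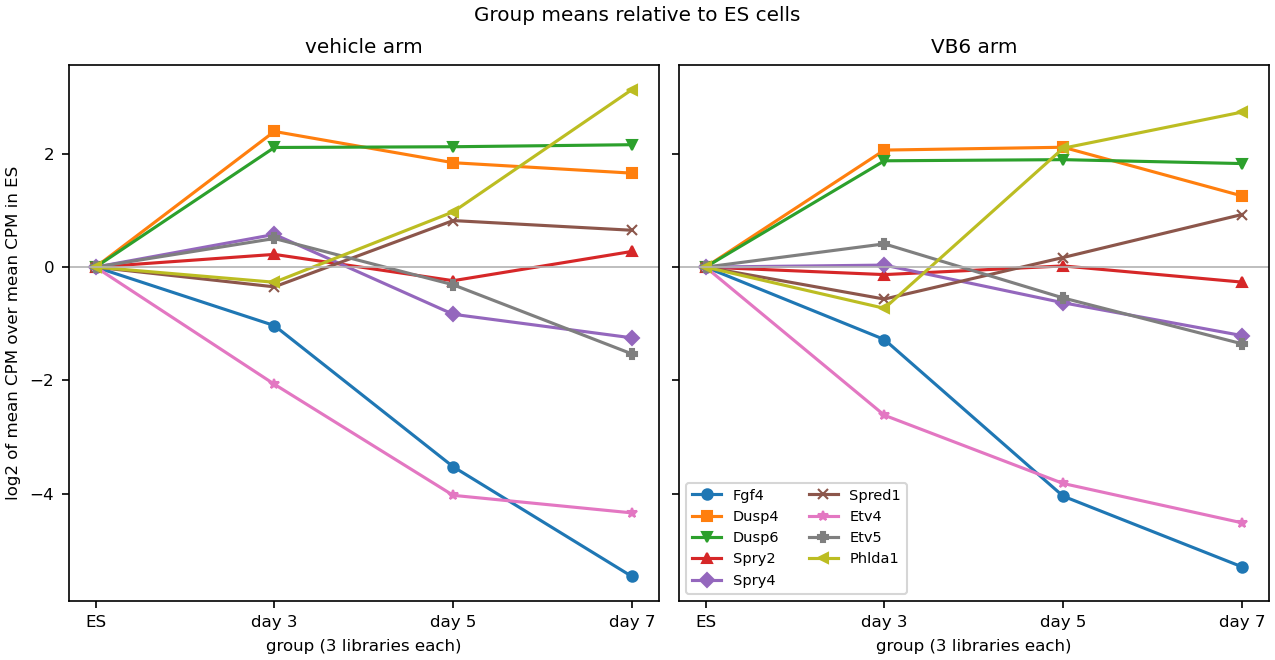
Mean CPM of each of the 9 tested genes on a log2 scale relative to ES cells (vertical axis), at ES and days 3, 5 and 7, for the vehicle arm (left) and the VB6 arm (right); each point is the mean of 3 libraries. Dusp4 and Dusp6 lie about 2 log2 units above ES cells by day 3, Fgf4 and Etv4 end more than 4 units below, and Phlda1 climbs latest.

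VB6 was compared with vehicle at each day. At day 3 the implied fragment length was 308 ± 3.41 nt with VB6 and 312 ± 4.30 nt with vehicle (SD, n = 3). On that day all 9 tested genes had a lower mean with VB6, and in all 9 the 3 VB6 libraries lay below the 3 vehicle libraries. Of all tested genes 29.1% had groups that did not overlap, counted in either direction. The share for the lower direction alone was not computed. The median of the 9 log2 differences was -0.33, beside -0.01 for all genes tested. In edgeR's test 4 of the 9 were called lower and none higher, where 2.77% of all genes were called lower, 1.49% higher and 4.26% in either direction. Of the calls over all genes 34.9% were higher with VB6, against 20.6% with limma on log2(TPM + 1).

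The largest differences at day 3 were those of an inhibitor and an ETS factor. Spry4 was 1.46-fold lower with VB6, at 36.9 ± 4.77 CPM (SD, n = 3) against 53.7 ± 2.36 CPM, a log2 difference of -0.54 ± 0.10 (SE, adjusted p = 0.00301). Etv4 was also 1.46-fold lower, at 23.9 ± 1.51 against 34.9 ± 4.54 CPM (-0.55 ± 0.12, adjusted p = 0.0126). Dusp4 was at 45.0 ± 2.94 against 56.5 ± 5.39 CPM (-0.33 ± 0.08, adjusted p = 0.0204). Phlda1 was at 5.52 ± 0.587 against 7.59 ± 1.16 CPM (-0.46 ± 0.12, adjusted p = 0.0352). These 4 are the called genes. The other 5 did not pass the test: Fgf4 at -0.25 ± 0.07 (adjusted p = 0.0582), Dusp6 at -0.23 ± 0.07 (0.0604), Spry2 at -0.36 ± 0.12 (0.0906), Spred1 at -0.22 ± 0.08 (0.137) and Etv5 at -0.09 ± 0.06 (0.353). With the correction, Spry4 (-0.50), Etv4 (-0.42), Dusp4 (-0.25), Spred1 (-0.26), Spry2 (-0.41) and Dusp6 (-0.22) were called lower and Phlda1 was not (-0.36, adjusted p = 0.06), so that 6 of the 9 were called where 6.95% of all genes were.

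The calls at day 3 rested on few libraries. Spry4 kept its call whichever library was left out. Without the second vehicle library, the first VB6 library or the second VB6 library it was the only call of the 9, and without the third vehicle library Spry4 and Etv4 were called. The log2 differences moved little: Dusp4 went from -0.33 to between -0.25 and -0.34 without these libraries, Etv4 from -0.55 to between -0.46 and -0.53 without those that ended its call, and Phlda1 from -0.46 to between -0.35 and -0.45. Of all genes, 191 to 407 were called without the second or the third vehicle library or any one VB6 library, against 805 with all 6 and 888 without the first vehicle library. Without the 6 libraries with short fragments, 6 of the 9 were called lower, where 656 of all genes were called in either direction. Fgf4 (-0.24, adjusted p = 0.0398) and Spry2 (-0.35, adjusted p = 0.0357) joined the 4. With limma on log2(TPM + 1) Spry4 alone was called, at -0.56 (adjusted p = 0.0253).

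Other properties of the day 3 libraries were compared too, where 2.77% of all genes were called lower with VB6 and 1.49% higher. The summed level of the naive genes was 215 to 229 CPM with VB6 and 260 to 297 CPM with vehicle, and 2 of 10 were called lower. That of the formative or primed genes was 2271 to 2473 CPM with VB6 and 2493 to 2815 CPM with vehicle, and 3 of 7 were called lower. The visceral endoderm genes summed to 783 to 845 CPM with VB6 and 717 to 815 CPM with vehicle, ranges that overlapped, with 3 of 8 called higher. None of 6 tested definitive endoderm genes and none of 7 tested genes of primitive streak and mesoderm was called. The 4 neural genes summed to 30.4 to 31.5 CPM with VB6 and 22.5 to 28.2 CPM with vehicle, with 1 of 3 tested called higher and a median log2 difference of -0.39. No gene of these lists was at 0 in all 3 libraries of either group, and the neural gene Neurog2 had no count in 2 of 3 libraries of each. The 4 fibroblast-like genes summed to 24.0 to 28.2 CPM with VB6 and 20.2 to 22.9 CPM with vehicle, and Thy1, also a surface gene of other cells, was the 1 called higher (0.52, adjusted p = 0.0193). Reads of mitochondrially encoded genes were 2.79 ± 0.142% with VB6 and 2.42 ± 0.126% with vehicle (SD, n = 3). Those of ribosomal protein genes were 6.99 ± 0.150% and 6.27 ± 0.321%, with no overlap. The part of any of these in the lower levels of the ERK genes was not tested.

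**Figure D4:**
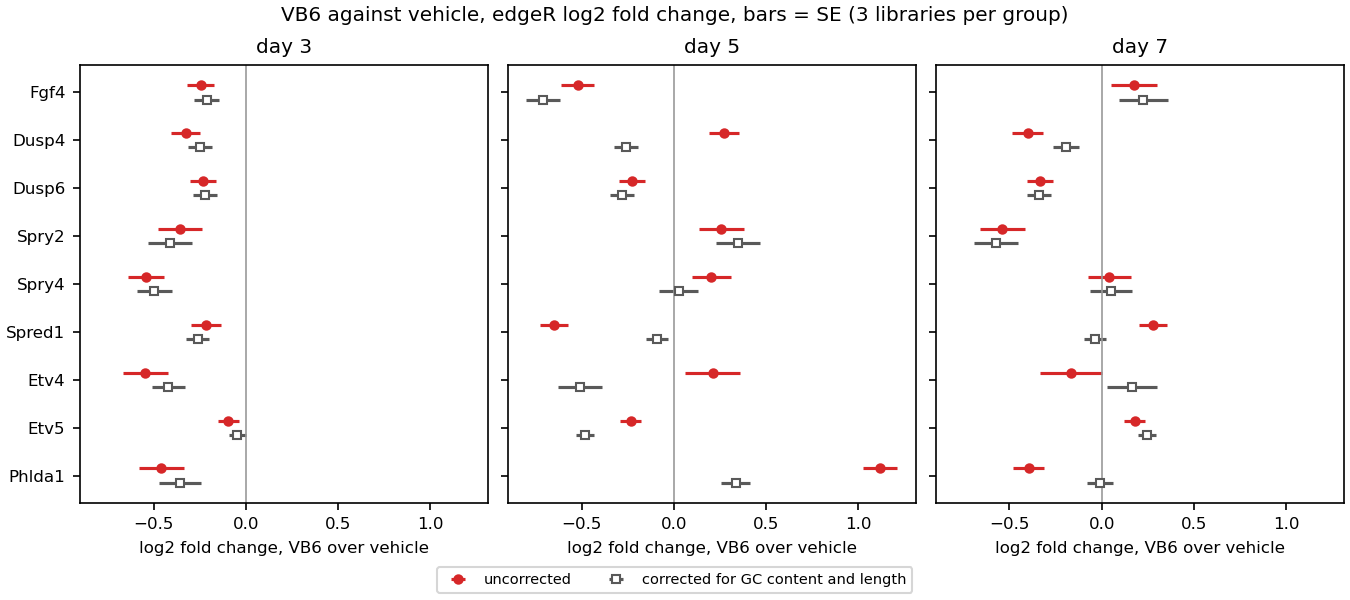
Log2 fold change of VB6 over vehicle (horizontal axis) at days 3, 5 and 7 for the 9 tested genes, from edgeR; filled circles are uncorrected, open squares are corrected for GC content and length, and bars are SE (3 libraries per group). All points lie below 0 at day 3, and the 2 fits part most at day 5 for Phlda1, Etv4, Spred1 and Dusp4.

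At day 5 the genes no longer moved one way. With VB6, 2 of the 9 were called higher and 4 lower, where 31.2% of all genes were called higher, 25.5% lower and 56.7% in either direction. The libraries of both groups did not overlap for 6 of the 9, and for 63.5% of all genes. Fgf4 was 1.44-fold lower, at 16.4 ± 1.35 against 23.5 ± 3.03 CPM (-0.52 ± 0.09, adjusted p = 3.28e-05, corrected -0.71). Etv5 was lower by -0.23 ± 0.06 (adjusted p = 0.00109, corrected -0.48), at 187 ± 6.65 against 219 ± 8.25 CPM. Dusp6 was lower by -0.23 ± 0.07 (adjusted p = 0.00852, corrected -0.28). The call of Dusp6 was lost without the second vehicle library (-0.17, adjusted p = 0.0641) or the first VB6 library (-0.18, adjusted p = 0.0526). These 3 genes kept their direction and call after the correction, and Phlda1 did so in the other direction, at 1.121 ± 0.09 uncorrected (adjusted p = 7.7e-10) and 0.34 ± 0.08 corrected (adjusted p = 0.00143).

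For the rest of the genes at day 5 the value depended on the correction, and the vehicle libraries of that day are those with the shortest fragments. Dusp4 was called higher uncorrected (0.27 ± 0.08, adjusted p = 0.00606) and lower corrected (-0.26 ± 0.06, adjusted p = 0.00228), and it stood at 0.00 on the TPM scale, where the median of all genes was -0.13. Spred1 was lower uncorrected (-0.65 ± 0.08, adjusted p = 1.87e-07) and not called corrected (-0.09 ± 0.06, adjusted p = 0.245). Etv4 was not called uncorrected (0.21 ± 0.15, adjusted p = 0.244) and lower corrected (-0.51 ± 0.12, adjusted p = 0.00134), and on the TPM scale it was at -0.41 (adjusted p = 0.142). Spry2 was higher by 0.26 ± 0.12 and Spry4 by 0.20 ± 0.11, neither called (adjusted p = 0.073 and 0.113), and the corrected values were 0.35 (called) and 0.03 (not called). Spry2 was called without the first vehicle library (0.39), and Spry4 without the first vehicle library (0.29) or the first VB6 library (0.28). With the correction 2 of the 9 were called higher and 5 lower, where 38.1% of all genes were called.

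At day 7, with VB6 the group of short fragments, 2 of the 9 were called higher and 4 lower, where 18.6% of all genes were called higher, 17.9% lower and 36.5% in either direction. The libraries did not overlap for 6 of the 9, and for 45.3% of all genes. With the correction 1 was higher and 3 were lower (27.9% of all genes called). Spry2 was 1.45-fold lower with VB6, at 25.5 ± 4.80 against 37.1 ± 2.69 CPM (-0.54 ± 0.12, adjusted p = 0.00107, corrected -0.57). Dusp6 was 1.26-fold lower, at 69.4 ± 4.29 against 87.5 ± 4.15 CPM (-0.33 ± 0.07, adjusted p = 0.000707, corrected -0.34). Dusp4 was lower by -0.40 ± 0.08 (adjusted p = 0.000639, corrected -0.19). These 3 inhibitors of the pathway kept their call after the correction. On the TPM scale none of the 3 was called, at -0.28, -0.07 and -0.12, where the median of all genes was 0.19. Etv5 was higher by 0.18 ± 0.06 (adjusted p = 0.019, corrected 0.25), and it was not called without the third vehicle library (0.12, adjusted p = 0.136) or the first VB6 library (0.15, adjusted p = 0.0811). Phlda1 (-0.40 ± 0.08 uncorrected) and Spred1 (0.28 ± 0.08 uncorrected) were called, and after the correction neither was, at -0.01 and -0.04. Fgf4, Spry4 and Etv4 did not pass the test, at 0.17 ± 0.12, 0.04 ± 0.12 and -0.17 ± 0.17 (adjusted p = 0.295, 0.814 and 0.471). On log2(TPM + 1) Fgf4 was called higher with VB6 (0.34, adjusted p = 0.00974), where the median of all genes was 0.19.

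Whether the VB6 difference was the same on the 3 days was tested in 1 joint test per gene. It differed between days for 8 of the 9 genes, where 60.0% of all genes were called, and for 6 of the 9 with the correction, where 45.1% were. The exception in both fits was Dusp6 (adjusted p = 0.574, corrected 0.537), whose difference was -0.23, -0.23 and -0.33 on days 3, 5 and 7. A p that misses the threshold does not show that these were equal, and on the TPM scale the days did differ (adjusted p = 0.0157), at -0.26, -0.47 and -0.07. Dusp4 and Spred1 lost the call with the correction (adjusted p = 0.811 and 0.0837). The corrected differences of Dusp4 were -0.25, -0.26 and -0.19.

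The wider pathway was counted on lists chosen with earlier results known. At day 3, 1 of 13 tested FGF ligands was lower with VB6 and none was higher. That gene was Fgf15, an ileal and embryonic FGF, at 34.6 against 54.6 CPM (-0.66 ± 0.11, adjusted p = 0.00207). None of 6 receptors and coreceptors and none of 20 genes of the cascade from FRS2 to ERK was called by edgeR, with medians of -0.10 and -0.04 beside -0.01 for all genes. With the correction 1 of the 20 cascade genes and none of the receptors was called, lower with VB6. Of 24 other ERK targets and feedback genes, 6 were lower and none higher, with a median of -0.26 and 19 of 24 below 0, where 2.77% of all genes were lower. With the correction 5 were lower and none higher, with a median of -0.14. Epha2, a receptor tyrosine kinase, was at 33.7 against 61.8 CPM (-0.87 ± 0.11, adjusted p = 6.27e-05). Myc was at 24.4 against 38.3 CPM (-0.65 ± 0.12, adjusted p = 0.00426), and Etv1, the third factor of the PEA3 group, at 25.6 against 38.0 CPM (-0.57 ± 0.12, adjusted p = 0.00789). Sox2 was the only one of the 3 Fgf4 regulators called, at 161 against 218 CPM (-0.44 ± 0.10, adjusted p = 0.016). With the correction Pou5f1 was called too (-0.23, adjusted p = 0.0302).

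**Figure D5:**
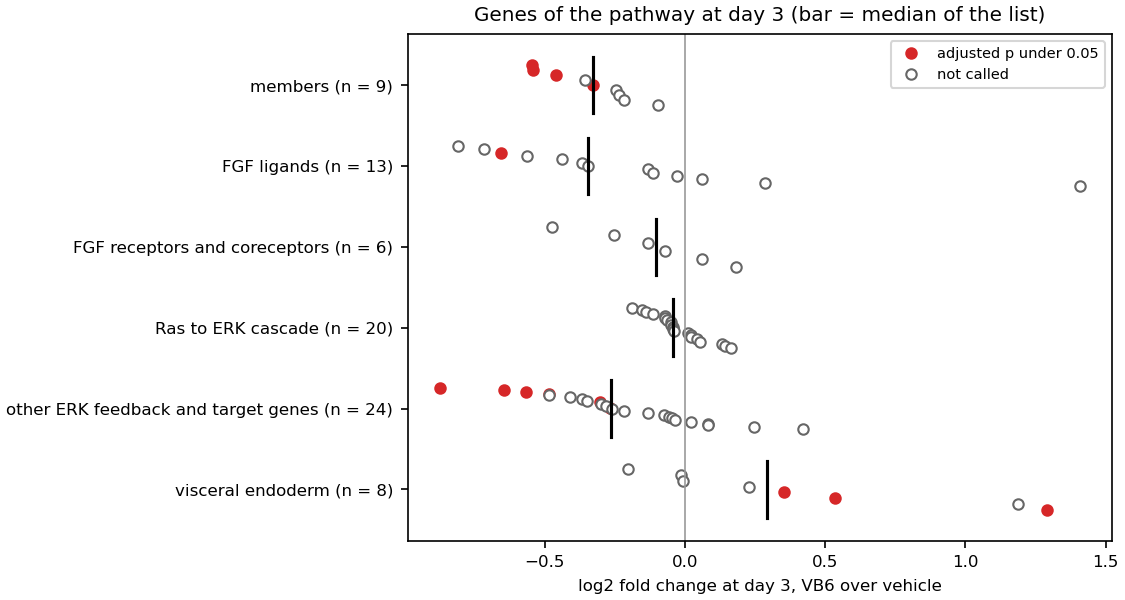
Log2 fold change of VB6 over vehicle at day 3 (horizontal axis) for the tested genes of 6 lists (rows); each point is 1 gene, red where the adjusted p was under 0.05, and the bar is the median of the list. The 9 genes described here all lie below 0, the 20 cascade genes lie around 0 and the visceral endoderm genes lie mostly above it.

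Most receptors of the pathway rose between vehicle day 3 and day 7. From ES cells to vehicle day 3, 2 of the 6 tested receptors and coreceptors were higher and 2 lower, where 33.1% and 31.8% of all genes were. Fgfr4 was at 19.6 CPM in ES cells, 5.39 CPM in vehicle day 3 and 13.0 CPM in vehicle day 7. Between vehicle day 3 and day 5, 3 of the 6 tested receptors and coreceptors rose and 1 fell (5 and 0 with the correction, median 0.66), where 31.9% of all genes rose. From day 5 to day 7 all 6 rose (5 with the correction, median 0.38), where 35.2% of all genes did. At vehicle day 7, 5 of 6 were higher than at day 3, where 34.3% of all genes were. Fgfr2, a receptor of primitive endoderm and epithelia, measured 3.56 CPM in the ES group, and in vehicle its means were 12.4, 40.3 and 57.8 CPM at days 3, 5 and 7. Fgfr3 measured 15.5 CPM in the ES group, and its vehicle means were 3.46, 15.5 and 51.5 CPM on those days. Among ligands Fgf5, an epiblast FGF, had no count in ES cells and was at 92.3, 137 and 39.1 CPM in vehicle at days 3, 5 and 7.

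Of the 24 other targets and feedback genes, 17 were higher and 4 lower in vehicle day 3 than in ES cells, where 33.1% of all genes were higher and 31.8% lower. In vehicle day 7, 12 were higher and 7 lower than in day 3 (12 and 10 with the correction), where 34.3% and 33.1% of all genes were. The phosphatase Dusp5 rose from 8.43 to 111 CPM between those days (3.72 ± 0.09, adjusted p = 1.24e-19), where the difference of Dusp6 was not called. The immediate early genes Fos and Junb rose from 4.41 to 91.1 CPM and from 10.8 to 109 CPM. At day 7, 10 of the 24 were lower with VB6 and 1 was higher, where 17.9% and 18.6% of all genes were. With the correction 9 were lower and 3 higher, and the median went from -0.20 to -0.08. Among the genes called lower were Junb at 32.4 against 109 CPM (-1.75 ± 0.12, adjusted p = 1.85e-10, corrected -1.17) and Ier2 at 34.1 against 98.5 CPM (-1.53 ± 0.11, corrected -0.98). At day 5, 11 of the 24 were higher with VB6 and 3 lower, where 31.2% and 25.5% of all genes were. With the correction 8 of the 24 were higher and 9 lower at day 5. All 6 receptors were called higher at day 5, and with the correction only Fgfr2 (0.28) and Klb (0.46) were.

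In levels per length the order of the 10 genes changed over the course. In ES cells Fgf4 and Etv4 had the highest mean TPM, with overlapping libraries (115 to 134 and 100 to 133 TPM). Etv5 came next at 82.7 to 103 TPM, which overlapped Etv4 but not Fgf4. Spry2 followed at 21.7 ± 2.67 TPM, and Spred1, Dusp6, Spry4, Phlda1 and Dusp4 had means of 13.6, 10.3, 10.2, 7.31 and 5.55 TPM. In vehicle day 7 Phlda1 was highest at 65.3 ± 2.30 TPM, followed by Dusp6 at 47.8 ± 1.42 TPM and Etv5 at 33.8 ± 2.12 TPM, with no overlap between these 3. Below the other genes, and above Fosl1 at a mean of 0.82 TPM, were Etv4 at 6.66 ± 0.906, Spry4 at 4.45 ± 0.645 and Fgf4 at 2.94 ± 0.142 TPM, and these 3 did not overlap. In VB6 day 7 Phlda1 was again highest, at 58.9 ± 6.24 TPM, and Etv5 at 46.7 ± 0.538 and Dusp6 at 45.5 ± 3.41 TPM overlapped.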

How the data were processed

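RNA sequencing of 21 libraries in 7 groups of 3 was analysed from tables with 78317 gene rows. The authors deposited expected counts, TPM and FPKM per gene and library, as the file headers name them; per the submitters' processing notes reads were placed on mm10, while the names of aligner and counter are not given in the sources at hand. The protocol text in the labels speaks of total RNA and also of a small RNA library, so the library preparation is uncertain. Between 26.9% and 30.5% of the expected counts above 0 were not whole (tolerance 0.005), and all were rounded.

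From these counts, 18901 genes that passed edgeR's filterByExpr over the 7 groups were fitted with edgeR 4.0.16 (R 4.3.3), TMM scaling and the quasi-likelihood test, with 1 mean per group and the spread shared by all 21 libraries, followed by Benjamini-Hochberg adjustment over all tested genes. There were 9 comparisons of groups and 1 joint test of the VB6 difference over the days. CPM are on the TMM scale. The corrected fit added, per library, an offset from a spline (5 degrees of freedom each) over GC content and transcript length. Both were those of the longest transcript of a gene in GENCODE M21, for the 17418 tested genes with both (92.2%). Implied fragment length comes from the ratio of deposited counts to FPKM over 578 genes. Alternatives were DESeq2 1.42.0, its size factors, other filters, limma 3.58.1 on log2(TPM + 1) and log2(TPM + 0.1), fits of the compared groups alone, a replicate block and leaving out each library; the fit without vehicle day 5 and VB6 day 7 was chosen after seeing the data. The scripts were tested on simulated data.

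The genes and all lists were chosen with earlier results of these data known. The 9 tested genes are given in each comparison, called or not, and Fosl1 by its levels, and of each pathway list up to 3 called genes with the smallest p per comparison; Fgfr2 and Klb at day 5 were named after their values were seen. Libraries of 1 group differed by more than counting noise (chi-square per gene 2.12 to 13.5), so none was counted as a copy. Promoters came from RefSeq and were counted for letters on both strands. Some genes of the lists are not reported here by name.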

Additional observations from a re-analysis of the deposited data

Results flagged for a closer look

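The difference between VB6 and vehicle varied with the day for 8 of the 9 tested genes, by edgeR's joint test over days 3, 5 and 7 with Benjamini-Hochberg adjustment. Of all genes 60.0% were called in that test. With the correction 6 of the 9 were called, where 45.1% of all genes were. The vehicle libraries of day 5 and the VB6 libraries of day 7 have shorter implied fragments, so the corrected value is given beside each. For Fgf4 the adjusted p was 0.00161 (corrected 9.1e-05), with log2 differences of -0.25, -0.52 and 0.17 on the 3 days. Among the inhibitors it was 3.18e-05 for Dusp4 (corrected 0.811), 0.000757 for Spry2 (corrected 0.000164), 0.000257 for Spry4 (corrected 0.0029) and 5.36e-07 for Spred1 (corrected 0.0837). Spry4 went from -0.54 at day 3 to 0.20 and 0.04, and Spry2 from -0.36 to 0.26 and -0.54. The ETS factors gave 0.00584 for Etv4 (corrected 0.00595) and 0.000433 for Etv5 (corrected 1.4e-08). Phlda1 gave 5.49e-10 (corrected 0.000654), with corrected differences of -0.36, 0.34 and -0.01. The calls of Dusp4 and Spred1 were not made with the correction, and on the TPM scale those of Dusp4, Spry2 and Etv4 were not made.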

How the results depend on the processing

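Counts of calls moved by more than 1.5 times in the following settings. From vehicle day 5 to day 7, 8 genes of the 9 were called by DESeq2, by the corrected fit and by the replicate block with the correction, against 5. Over all genes 12197 were called by DESeq2 and 10660 by the corrected fit in that step, against 12526. For VB6 against vehicle at day 3, 1 of the 9 was called on either TPM scale and 7 with only the 2 groups fitted, against 4. Over all genes at day 3, 805 calls became 1393 with no filter, 277 and 200 on log2(TPM + 1) and log2(TPM + 0.1), 1991 with only the 2 groups fitted and 1210 corrected. At day 5 the calls over all genes were 6640 corrected and 6618 with the block as well, against 10716. At day 7, 3 of the 9 were called on either TPM scale, against 6. Over all genes 8184 and 7842 were called there on log2(TPM + 1) and log2(TPM + 0.1), against 6899. Leaving out 1 library gave 1 to 4 calls among the 9 at day 3, and 191 to 888 over all genes.

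Signs turned as follows on the log2 scale. On the TPM scales (pseudocount 1, then 0.1), Dusp6 was -0.18 and -0.19 from vehicle day 5 to day 7 and 0.22 on both from VB6 day 5 to day 7, where Spry2 was 0.0036 and 0.0031. For VB6 against vehicle on those scales, Spry4 was -0.0768 and -0.0868 and Etv4 -0.41 and -0.44 at day 5, and Etv4 was 0.15 and 0.17 at day 7. With the correction, and with the block added to it, Dusp6 was -0.0246 and -0.0247 from vehicle day 5 to day 7, -0.001 and -0.0013 from vehicle day 3 to day 7, and -0.0357 and -0.0373 from VB6 day 3 to day 5. In the same 2 fits Spred1 was 0.35 and 0.35 from vehicle day 5 to day 7 and -0.0358 and -0.0364 for VB6 at day 7, Dusp4 was -0.24 and -0.24 from VB6 day 3 to day 5 and -0.26 and -0.26 for VB6 at day 5, and Etv4 was -0.51 and -0.51 at day 5 and 0.16 and 0.16 at day 7. DESeq2 and its size factors gave -0.021 and -0.0211 for Dusp6 from VB6 day 3 to day 5. Leaving out 1 library, Dusp6 ranged from -0.0391 to 0.0616 (vehicle day 3 to 5), -0.0114 to 0.0893 (vehicle day 5 to 7) and -0.0371 to 0.0759 (VB6 day 3 to 5), Spry2 from -0.0236 to 0.14 (vehicle day 3 to 7), Dusp4 from -0.0165 to 0.12 (VB6 day 3 to 5) and Spry4 from -0.0635 to 0.15 (VB6 at day 7). The cause of these changes was not tested.

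Scaling by TPM + 1 shifted the median of all genes by 0.25 from vehicle day 3 to 5, -0.15 from day 5 to 7, 0.10 from day 3 to 7, 0.22 from VB6 day 5 to 7, and -0.18 and 0.18 for VB6 at days 5 and 7. The share of calls that were higher went from 48.9% to 71.3%, 53.1% to 37.9%, 50.9% to 59.9%, 50% to 75.7%, 55.1% to 31.1% and 51.1% to 82.9% in these comparisons, and from 53.1% to 67.5% from VB6 day 3 to 5. Libraries with the same replicate number share only a number: the correlations of their deviations ran from -0.148 to 0.08, none over 0.1. With the replicate block 89 of 90 results on single genes kept direction and side of the threshold, and the other, Spred1 from vehicle day 5 to day 7 (-0.17), passed it at an adjusted p of 0.0412. Levels under about 0.189 CPM, those of Fosl1 in most libraries, are limited by depth.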
